A study of Mus musculus with 5 samples.

Results

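Epithelial cells hold together through junctions, and 8 genes of these structures were followed in mouse embryonic stem (ES) cells with and without Dicer: Cdh1, Epcam, Cldn3, Cldn4, Cldn6, Cldn7, Tjp1 and Ocln. The genes were given by name. A gene was read from a probe set whose platform annotation names that gene alone, and all 8 had exactly 1 such probe set, out of 19938 genes read in this way. The arrays came from asynchronous cultures, 3 of wild-type ES cells (called WT here) and 2 of Dicer-deficient ES cells (KO). Neither had feeder cells, and the medium of both combined equal parts of serum with LIF, a self-renewal cytokine, and of N2B27+2i, where 2i stands for a pair of kinase inhibitors. The series' design text calls the cultures biological replicates. The labels give the genotype and an array number, but no cell line, clone or allele. The loss of Dicer and any other way in which the WT and KO cells differ cannot be told apart. The early G1 cultures of the same design and a further KO culture were not analysed here.

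Dicer is the ribonuclease that releases mature microRNAs from their precursors. Adherens junctions are built on E-cadherin (Cdh1), which binds its like on the next cell and is tied to actin through catenins. Tight junctions seal the space between cells: claudins form their strands, occludin (Ocln) joins them, and the scaffold ZO-1 (Tjp1) ties both to the cytoskeleton. Epcam is an adhesion molecule of epithelia that associates with claudin-7. Naive mouse ES cells grow as compact domed colonies held together by E-cadherin, and both E-cadherin and Epcam are well known as surface proteins of ES cells.

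The targeted gene and the markers were read first. Dicer1 gave log2 signals of 8.84, 8.82 and 8.85 on the WT arrays and 7.20 and 6.84 on the KO arrays, so the groups lay far apart in the labelled direction. The log2 change was -1.82 (SE 0.112; limma adjusted p = 0.000129), although no source used here says which part of the gene was deleted. The ES cell genes Pou5f1, Nanog and Sox2 had mean log2 signals above 10 in both groups. Among 8 ES cell markers 2 fell at a limma adjusted p under 0.05, Esrrb and Tdgf1, with log2 changes of -0.72 and -0.70. Over all 19938 genes 17.1% passed that threshold, a share to set beside the count of each marker list here. Esrrb had adjusted p = 0.00655 and lost its call without WT array 2 or KO array 2 (adjusted p from 0.0534 to 0.0914). By limma, 0 of 8 primitive endoderm markers and 0 of 8 fibroblast markers passed an adjusted p of 0.05, and 0 of the first and 1 of the second (Pdgfrb, lower) had an unadjusted p below 0.05. The log2 of the summed signal of the endoderm list was 8.04 to 8.27 in WT and 8.11 to 8.17 in KO. That of the fibroblast list was 8.40 to 8.63 and 8.47 to 8.56. Of 7 trophectoderm markers Gata3 rose, by 1.23 (limma adjusted p = 0.000177). Eomes and Ascl2 had changes of -0.49 and -0.48, with both KO arrays below the WT range, and did not pass (limma adjusted p = 0.0977 and 0.0523); their unadjusted p-values were under 0.05. Cdx2 and Elf5 had mean signals of 5.25 and 4.23 in WT and 5.31 and 4.29 in KO. All of these are under 5.404, the median signal of the array's probe sets, where a change could go unseen. The list's summed signal was 9.14 to 9.33 and 9.20 to 9.39. Of 5 neural markers Pax6 rose, by 0.95 (limma adjusted p = 0.000501), from a WT mean of 5.18, which is also under the median of 5.404. Tubb3 had a change of -0.36 with both KO arrays below the WT range and did not pass (limma adjusted p = 0.138, unadjusted p = 0.0346). The list's summed signals were 8.97 to 9.23 and 9.03 to 9.08. In RNA from whole cultures, a change in the number of cells of a kind and a change in RNA per cell cannot be told apart.

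Where RefSeq gave a start site, the 250 bases before it were read for letters known from epithelial gene control. Table entries on the build GRCm38.p6 were matched for 7 of the 8 genes, with 9 start sites among them; Cdh1 had no match. The E-box CAGGTG, or CACCTG on the other strand, is the site bound by the repressors Zeb1, Zeb2, Snai1 and Snai2. It lay in 5 of the 9 windows, from 5 genes (Epcam, Cldn4, Cldn6, Cldn7 and Ocln), and in 17.2% of the 32851 windows of all genes. AACCNGTT, a form of the site of grainyhead-like factors such as Grhl2, was in 0 of the 9 and in 1.79% of all. The windows of the 3 genes with the largest rises and of the gene that fell are given 5′ to 3′ on the gene's strand, with E-boxes in capitals. For Cldn7 the start site is the one whose window holds them.
Cldn4, chr5:134946935-134947184, minus strand: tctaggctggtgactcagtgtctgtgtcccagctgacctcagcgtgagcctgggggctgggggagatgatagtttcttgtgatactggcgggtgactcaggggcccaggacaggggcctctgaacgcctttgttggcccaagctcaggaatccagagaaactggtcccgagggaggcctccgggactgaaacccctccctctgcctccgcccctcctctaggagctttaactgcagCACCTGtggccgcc
Cldn7, chr11:69965171-69965420, plus strand: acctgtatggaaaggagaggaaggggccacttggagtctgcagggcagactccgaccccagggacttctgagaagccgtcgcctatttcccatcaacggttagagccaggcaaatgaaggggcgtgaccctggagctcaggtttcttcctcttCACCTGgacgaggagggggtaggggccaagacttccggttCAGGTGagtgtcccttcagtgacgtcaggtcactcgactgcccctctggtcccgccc
Epcam, chr17:87635729-87635978, plus strand: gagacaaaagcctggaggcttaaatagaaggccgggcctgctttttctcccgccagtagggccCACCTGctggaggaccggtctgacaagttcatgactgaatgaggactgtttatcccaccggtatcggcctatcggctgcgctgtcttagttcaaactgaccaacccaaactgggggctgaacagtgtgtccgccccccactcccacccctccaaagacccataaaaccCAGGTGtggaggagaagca
Cldn6, chr17:23679115-23679364, plus strand: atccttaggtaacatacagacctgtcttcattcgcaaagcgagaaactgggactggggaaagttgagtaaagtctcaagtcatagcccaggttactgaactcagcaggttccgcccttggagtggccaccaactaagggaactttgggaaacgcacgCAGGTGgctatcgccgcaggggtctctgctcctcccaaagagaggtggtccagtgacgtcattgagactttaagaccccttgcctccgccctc
The E-box begins 14 bases before the start site in Cldn4 and 93 bases before it in Cldn6. Epcam has one at 187 and one at 19 bases before its start, and Cldn7 at 97 and 57. The letters are thus present in front of genes that moved in opposite directions, and whether any factor binds there was not measured.

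Of the 8 junction genes, 5 rose in KO cells (Cdh1, Epcam, Cldn3, Cldn4 and Cldn7), 1 fell (Cldn6), and Tjp1 and Ocln did not pass the test. The rises lay between 1.39-fold and 1.73-fold, and none of the 8 changed by as much as 2-fold. Over all genes 17.1% passed the same test in either direction, 8.48% higher and 8.6% lower. The median log2 change was 0.52 over the 8 genes and 0.01 over all 19938. The call of Cldn4 held whichever array was left out, and each other call was lost without at least 1 array. In all, 6 genes were called without WT array 3, 3 without WT array 1, 2 without WT array 2, 1 without KO array 1 and 3 without KO array 2.

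**Figure D1:**
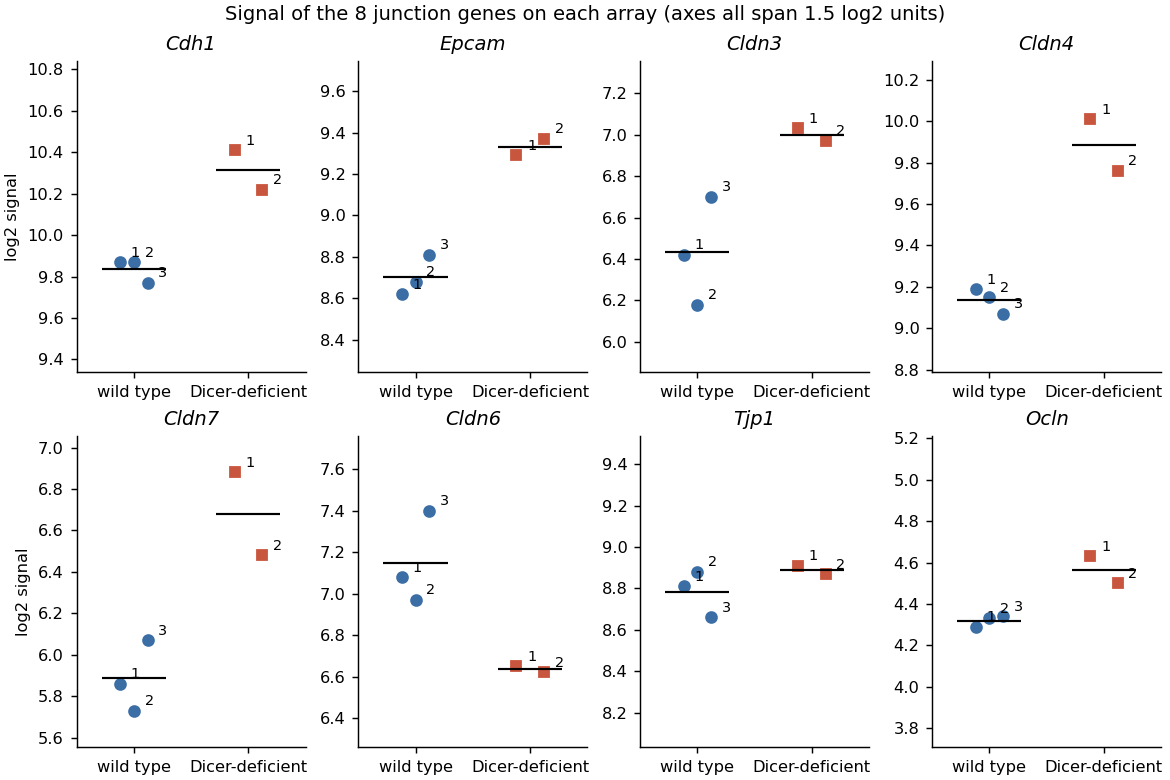
Log2 signal of each junction gene on each array (vertical axes, each spanning 1.5 log2 units), with WT arrays as blue circles, KO arrays as red squares, numbers giving the array and bars the group mean. The KO arrays lie above all WT arrays for 6 genes, and below them for Cldn6, while for Tjp1 KO array 1 lies just above the WT arrays and KO array 2 among them.

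Cdh1, on chromosome 8, encodes E-cadherin. Its log2 signal was 9.87, 9.87 and 9.77 on the WT arrays and 10.41 and 10.22 on the KO arrays. Both KO arrays were above every WT array, by 0.35 at the closest. The log2 change was 0.48 (SE 0.0895, 95% interval 0.27 to 0.69), a 1.39-fold rise (limma adjusted p = 0.00984). The call was lost without WT array 2 (adjusted p = 0.0509) and without KO array 1 (adjusted p = 0.1), where the change was 0.38.

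Epcam, on chromosome 17, gave 8.62, 8.68 and 8.81 on the WT arrays and 9.29 and 9.37 on the KO arrays. It was the only one of the 8 genes with a higher signal on KO array 2 than on KO array 1. The KO arrays agreed to within 0.08 and stood 0.48 above the highest WT array. The log2 change was 0.63 (SE 0.0879), a 1.54-fold rise (limma adjusted p = 0.00288), with adjusted p = 0.0526 and 0.0645 without KO array 1 and KO array 2, where a single KO array remains.

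The claudins divided by direction. Cldn4 gave 9.19, 9.15 and 9.07 on the WT arrays and 10.01 and 9.76 on the KO arrays, so the KO arrays differed from each other by 0.25 and from the nearest WT array by 0.57. It rose 1.68-fold (log2 change 0.75, SE 0.0978, limma adjusted p = 0.00214), and its adjusted p lay between 0.0158 and 0.0436 as each array was left out. Cldn7, the claudin partner of Epcam, gave 5.86, 5.73 and 6.07 in WT and 6.88 and 6.48 in KO. Its change was the largest of the 8 and its KO arrays were the least alike, 0.40 apart. It rose 1.73-fold (log2 change 0.79, SE 0.144, 95% interval 0.46 to 1.13, limma adjusted p = 0.00854). The call of Cldn7 was lost without WT array 1 (adjusted p = 0.0566), WT array 2 (0.0594) or KO array 1 (0.129, with a change of 0.59).

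Cldn3 lies beside Cldn4 on chromosome 5, with no other measured gene between them. Its signals were 6.42, 6.18 and 6.70 in WT and 7.03 and 6.97 in KO. The WT arrays spanned 0.52, the widest range of any of the 8, and the KO arrays were 0.27 above the highest of them. It rose 1.48-fold (log2 change 0.57, SE 0.143, limma adjusted p = 0.0328), a call that was lost without any array but WT array 3 (adjusted p from 0.0943 to 0.272). Cldn6, on chromosome 17, moved the other way, from 7.08, 6.97 and 7.40 to 6.65 and 6.62. Both KO arrays lay below the whole WT range, by 0.32. Its log2 change was -0.52 (SE 0.128, 95% interval -0.81 to -0.22), a 1.43-fold lower level (limma adjusted p = 0.0309), also lost without any array but WT array 3 (adjusted p from 0.0507 to 0.244). For Cldn3, Cldn6 and Cldn7 alike, WT array 3 was the highest WT array and WT array 2 the lowest. That order within the WT group was the same for the claudin that fell as for the 2 that rose.

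Tjp1 and Ocln are the strand-bound scaffold and the other strand protein. Tjp1, on chromosome 7, gave 8.81, 8.88 and 8.66 in WT and 8.91 and 8.87 in KO. The groups overlapped, and the 95% interval of the log2 change, 0.11, ran from -0.10 to 0.32 (adjusted p = 0.549), an interval that includes 0 and reaches a 1.25-fold rise. Ocln, on chromosome 13, gave 4.29, 4.33 and 4.34 in WT and 4.63 and 4.50 in KO. The KO arrays were above the WT arrays by 0.16, but the change of 0.24 (95% interval 0.06 to 0.43) did not pass the test (limma adjusted p = 0.0805). All 5 of its signals were below 5.404, the median signal of the array's probe sets. The KO arrays lay outside the WT range for 7 of the 8 junction genes, 6 above and 1 below, which was the case for 39.9% of all genes, 20% above and 19.9% below.

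**Figure D2:**
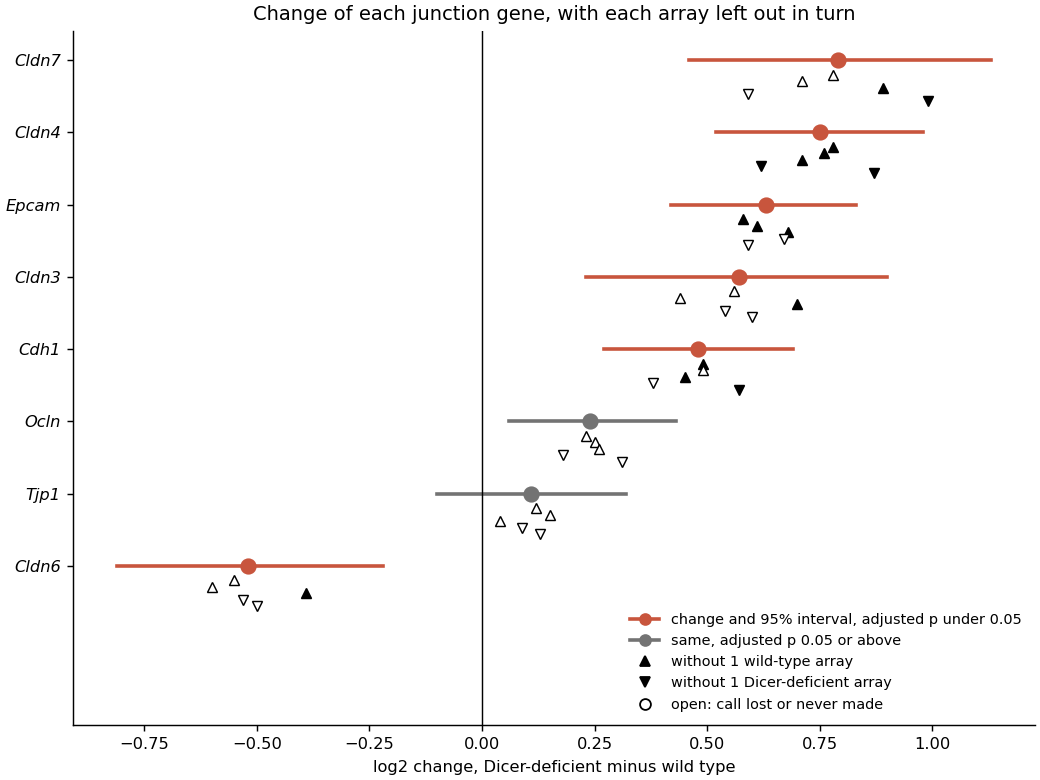
Log2 change of each junction gene, KO minus WT (horizontal axis), with its 95% interval from limma as a line, red where adjusted p was under 0.05 and grey otherwise. Triangles below give the change with 1 array left out, open where adjusted p was 0.05 or above. Cldn4 alone has 5 filled triangles.

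Of 14 other measured genes that lie next to one of the 8, 2 passed the test, both lower. That is no more than the share of all genes that passed, 17.1%. Beside Cdh1, the cadherin gene Cdh3 fell, from 6.96, 6.98 and 7.12 to 6.44 and 6.40 (log2 change -0.60, adjusted p = 0.00285; 0.0549 and 0.06 without KO array 1 and KO array 2). Beside Cldn7, Elp5, a gene of the Elongator complex, also fell, by 0.77 (adjusted p = 0.00429; 0.101 and 0.0596 without KO array 1 and KO array 2). Cldn9, next to Cldn6, had a change of 0.07 (adjusted p = 0.746), and Marveld2, next to Ocln, also 0.07 (adjusted p = 0.705). Cdh3 and Elp5 were chosen for naming after their values were seen. Genes whose profile over the 5 arrays was most like that of Cldn4 were Clock, Arhgap1 and Klf2, at Euclidean distances of 0.080 to 0.108 between log2 signals centred on each gene's mean, out of 11191 genes above the median signal. For Cldn7 they were Man2a1, Brpf3 and Cds1, at distances of 0.171 to 0.194. All 6 were called higher, with log2 changes from 0.66 to 0.82. Such rises follow from the choice, since likeness was measured on the same 5 arrays and includes the difference between groups. Brpf3 lost its call without any array but WT array 3 (adjusted p from 0.0504 to 0.149), and Man2a1, Cds1 and Klf2 lost theirs without KO array 1 (0.0907, 0.0909 and 0.0558).

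The other claudins did not pass the test. By limma, 0 of 19 other claudins passed an adjusted p of 0.05, against 17.1% of all genes. An unadjusted p below 0.05 was found for 1 of them, Cldn12, and for 5545 of all 19938 genes. Their log2 changes ran from -0.29 to 0.17, with a median of 0.00. Cldn12 gave 6.97, 7.00 and 6.86 in WT and 6.71 and 6.59 in KO, a change of -0.29 (adjusted p = 0.0543) without overlap of the groups. It was called lower when dim genes were left out, when the arrays were quantile normalized again, with array weights or without WT array 3. The mean signal of 12 of the 19 was under the median probe set, where a change could go unseen.

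Among 25 measured partners of the tight junction, 5 rose and 0 fell in limma (median log2 change 0.00), a share of 20% against 17.1% of all genes. Patj, a scaffold of the Crumbs polarity complex at the tight junction, stood out with 5.08, 5.29 and 5.39 in WT and 7.48 and 7.22 in KO. Its log2 change was 2.10 (SE 0.121, limma adjusted p = 0.000101), and the call held without each array in turn. Its WT mean of 5.25 was under the median probe set and may be background, which leaves the size of the rise uncertain. Mpp5, also known as Pals1, joins Patj to Crumbs; it gave 7.26, 7.21 and 6.92 in WT and 7.69 and 7.63 in KO, a 1.44-fold rise (adjusted p = 0.0173). Cxadr, an adhesion receptor of tight junctions, rose 1.42-fold (adjusted p = 0.0086), and the cingulin-like scaffold Cgnl1 1.29-fold (adjusted p = 0.0214). The polarity kinase Prkci was the other called gene (log2 change 0.28, adjusted p = 0.0449). Jam2, the kinase Prkcz, the Crumbs gene Crb3 and Magi1 had changes of -0.46, -0.46, -0.32 and -0.27. They did not pass (limma adjusted p from 0.0999 to 0.135), though their unadjusted p-values were below 0.05. The same held for F11r and Ildr1, with changes of 0.37 and 0.20 (adjusted p = 0.136 and 0.118). With dim genes left out 2 of the list were called lower, and with array weights 1. Cxadr lost its call without WT array 2 or KO array 2 (adjusted p from 0.0547 to 0.0938), and Mpp5 without WT array 2 or either KO array (0.0656 to 0.192). Cgnl1 lost it without any array but WT array 1 (0.0528 to 0.144) and Prkci without each array (0.073 to 0.186). The list had 4 calls without WT array 1, 1 without WT array 2, 3 without WT array 3, 3 without KO array 1, 1 of them lower, and 1 without KO array 2.

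At the adherens junction 5 of 18 genes rose and 1 fell, 33.3% against 17.1% of all genes (median log2 change 0.06). Among the catenins of the E-cadherin complex, Jup passed the test and Ctnna1, Ctnnb1 and Ctnnd1 did not. Ctnna1, Ctnnb1 and Ctnnd1, which encode alpha-, beta- and p120-catenin, had log2 changes of 0.04 (95% interval -0.15 to 0.23), 0.07 (-0.16 to 0.29) and -0.02 (-0.24 to 0.21). The changes of Ctnnb1 and Ctnnd1 are so small that their sign turned under other settings: Ctnnb1 had -0.01 without WT array 3, and Ctnnd1 had 0.01 when the arrays were quantile normalized again. Plakoglobin (Jup), the catenin shared with desmosomes, gave 8.78, 8.69 and 8.56 in WT and 9.03 and 9.01 in KO, a 1.27-fold rise (adjusted p = 0.037). Nectin3, an immunoglobulin-type adhesion molecule, gave 6.73, 6.65 and 6.79 in WT and 7.37 and 7.26 in KO, a 1.51-fold rise (adjusted p = 0.00303), and afadin (Afdn), which anchors nectins to actin, rose 1.37-fold (adjusted p = 0.00691). Nectin2 and Iqgap1 also rose, by 0.34 and 0.37, and Wtip, a LIM-domain protein, fell by 0.32. Nectin3 lost its call without KO array 1 (adjusted p = 0.06), Afdn without either KO array (0.0616 to 0.0808), and Jup without any array but WT array 1 (0.0626 to 0.21). Nectin2 and Iqgap1 lost theirs without each array (0.0507 to 0.274), and Wtip without any but WT array 3 (0.0692 to 0.134). The list had 3 calls without WT array 1 or 3, 2 without WT array 2, 0 without KO array 1 and 1 without KO array 2.

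Desmosomes, the junctions anchored to keratin filaments, held the largest single change among the partner genes. The desmosomal cadherin Dsg2 gave 6.73, 6.91 and 6.48 in WT and 9.03 and 8.85 in KO, a 4.70-fold rise (log2 change 2.23, SE 0.132, limma adjusted p = 0.000108). The plakophilin Pkp2 moved the other way, from 7.54, 7.45 and 7.75 to 6.58 on both KO arrays, 2.00-fold lower (adjusted p = 0.000751). Both calls held without each array in turn. Perp, a membrane protein needed for desmosome assembly, rose 1.84-fold (adjusted p = 0.0126), lost without WT array 2 or either KO array (0.0595 to 0.178). In all 3 of the 10 measured genes were called, 2 higher and 1 lower, 30% against 17.1% of all genes. The list had 3 calls without WT array 1, 2 without WT array 2 and 4, 2 of them lower, without WT array 3. Desmoplakin (Dsp) gave 5.66, 5.71 and 5.77 in WT against 6.44 and 5.89 in KO, where the KO arrays disagreed by more than the whole WT range, and it did not pass (adjusted p = 0.0865). Of 8 gap junction genes 1 was called, 12.5% against 17.1% of all genes. Connexin 43 (Gja1) gave 8.57, 8.33 and 8.44 in WT and 9.07 and 9.62 in KO, a 1.86-fold rise (limma adjusted p = 0.00773). The call was lost without WT array 2 (adjusted p = 0.0614) and without KO array 2, where the change was 0.62.

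**Figure D3:**
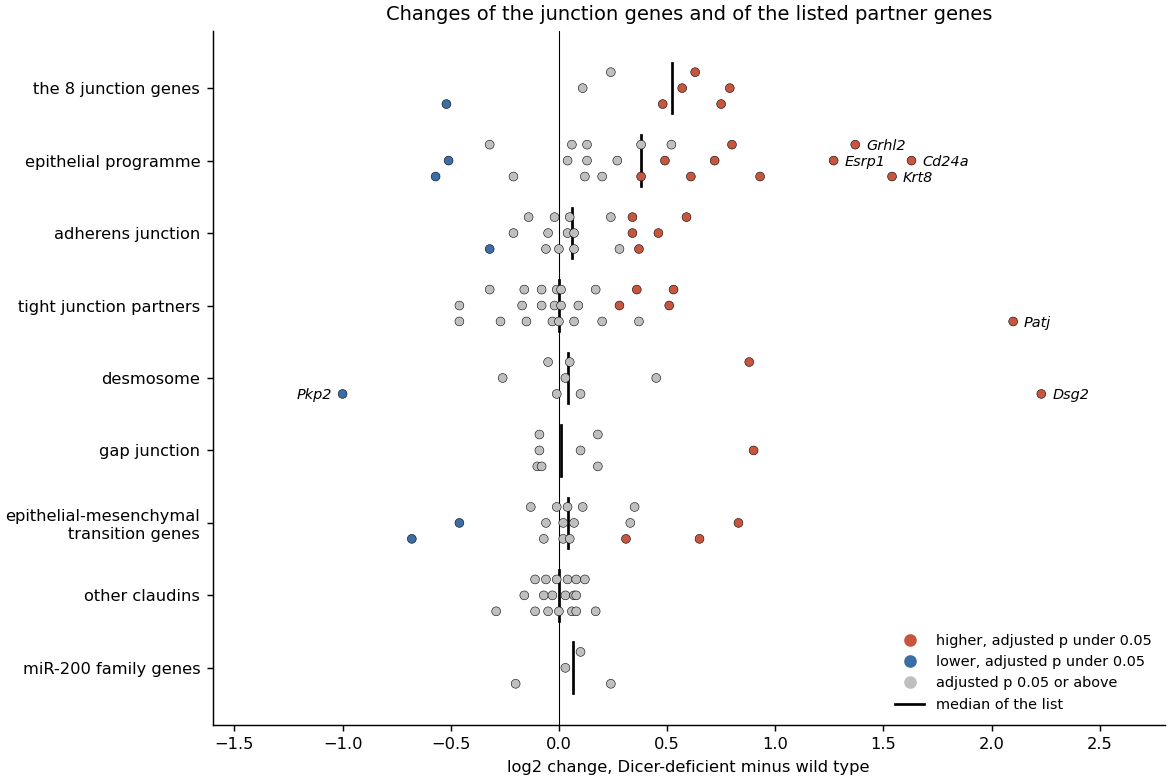
Log2 change, KO minus WT (horizontal axis), of the 8 junction genes and of the measured genes of 8 further lists (rows), 1 point a gene, red for called higher, blue for called lower and grey for adjusted p of 0.05 or above, with the list's median as a bar. Genes with a change of at least 1 are named; Dsg2 and Patj lie farthest to the right.

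Genes of the epithelial programme are regulators and markers of simple epithelia, listed with earlier results of these data known. Of 23 measured, 10 rose and 2 fell, 52.2% against 17.1% of all genes, with a median log2 change of 0.38. The choice of the list may have raised that share, which was not tested. Grhl2, a transcription factor known to act on Cdh1 and Cldn4 in epithelia, gave 6.26, 6.24 and 6.30 in WT and 7.50 and 7.77 in KO, a 2.58-fold rise (log2 change 1.37, SE 0.0975, limma adjusted p = 0.000184). Its relatives Grhl1 and Grhl3 had changes of 0.13 and -0.32 and did not pass (adjusted p = 0.427 and 0.109). Esrp1, which directs epithelial splicing, gave 5.61, 5.71 and 6.15 in WT and 6.98 and 7.20 in KO, a 2.41-fold rise (adjusted p = 0.00196; 0.06 to 0.0802 without either KO array). Cd24a, a surface glycoprotein of epithelia, rose 3.10-fold, from 7.29, 7.12 and 7.23 to 8.97 and 8.72. Krt8, a keratin of simple epithelia, rose 2.90-fold, and its filament partner Krt18 rose 1.40-fold (adjusted p = 0.028). The calls of Grhl2, Cd24a and Krt8 held without each array in turn.

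The surface protease system of epithelia was in the same list. The protease matriptase (St14) gave 8.21, 8.28 and 8.07 in WT and 9.21 and 8.76 in KO, a 1.74-fold rise (adjusted p = 0.00703). Prostasin (Prss8), a protease that acts with it, rose 1.64-fold (adjusted p = 0.00677). Their inhibitor Spint1 fell, from 9.95, 9.86 and 9.56 to 9.23 and 9.21, 1.48-fold lower (adjusted p = 0.0162), while Spint2 had a change of -0.21 (adjusted p = 0.112). The epithelial sorting adaptor Ap1m2 rose 1.90-fold, and Elf3 and Krt19 also rose, by 0.38 and 0.61. Cd9, a tetraspanin, was the other gene that fell, 1.42-fold. Esrp2 gave 6.04, 6.29 and 6.14 against 6.93 and 6.42, and did not pass (adjusted p = 0.0561). St14, Prss8 and Ap1m2 lost their calls without KO array 1 (adjusted p = 0.0762, 0.0608 and 0.0509), and Elf3, Krt18, Krt19, Spint1 and Cd9 without any array but WT array 3 (0.0658 to 0.28). The list had 7 calls without WT array 1 or 2, 13 without WT array 3, 3 without KO array 1 and 6 without KO array 2. KO array 1 was above KO array 2 for 7 of the 10 genes that rose, against 909 of the 1690 genes called higher among all. The same held for 7 of the 8 junction genes, against 9320 of all 19938 genes.

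Genes of the epithelial to mesenchymal transition, in which cells give up E-cadherin, moved both ways. Of 17, 3 rose and 2 fell, 29.4% against 17.1% of all genes (median log2 change 0.04). Of the repressors of Cdh1, Snai1 passed the test and Zeb1, Zeb2 and Snai2 did not. Zeb1 gave 7.42, 7.17 and 7.00 in WT and 7.40 and 7.70 in KO, with overlap, and a change of 0.35 (95% interval 0.02 to 0.68, adjusted p = 0.151). Zeb2 gave 4.10 on each WT array and 4.17 and 4.07 in KO, close to the lower quartiles of the arrays, 4.14 to 4.18. Its change was 0.02, and -0.03 without KO array 1. Snai2 had a change of 0.07 (adjusted p = 0.645), and Snai1 rose by 0.31 (adjusted p = 0.0454), a call lost without any array but WT array 3 (adjusted p from 0.123 to 0.23) and with an intensity trend (0.0663). The mesenchymal filament protein vimentin (Vim) rose 1.78-fold, from 11.24, 11.09 and 11.30 to 11.88 and 12.20 (adjusted p = 0.00287), and N-cadherin (Cdh2) rose 1.57-fold, from 5.91, 6.04 and 5.93 to 6.47 and 6.75 (adjusted p = 0.00494). Fibronectin (Fn1) fell 1.38-fold and the matrix protein Tgfbi 1.61-fold. E-cadherin and N-cadherin transcripts were thus both higher in the KO cultures. Vim and Cdh2 lost their calls without KO array 2 (adjusted p = 0.0565 and 0.0645), Tgfbi without either KO array (0.0848 to 0.0857) and Fn1 without any array but KO array 1 (0.0829 to 0.202). The list had 3 calls without WT array 1, WT array 2 or KO array 1, 4 without WT array 3 and 0 without KO array 2.

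**Figure D4:**
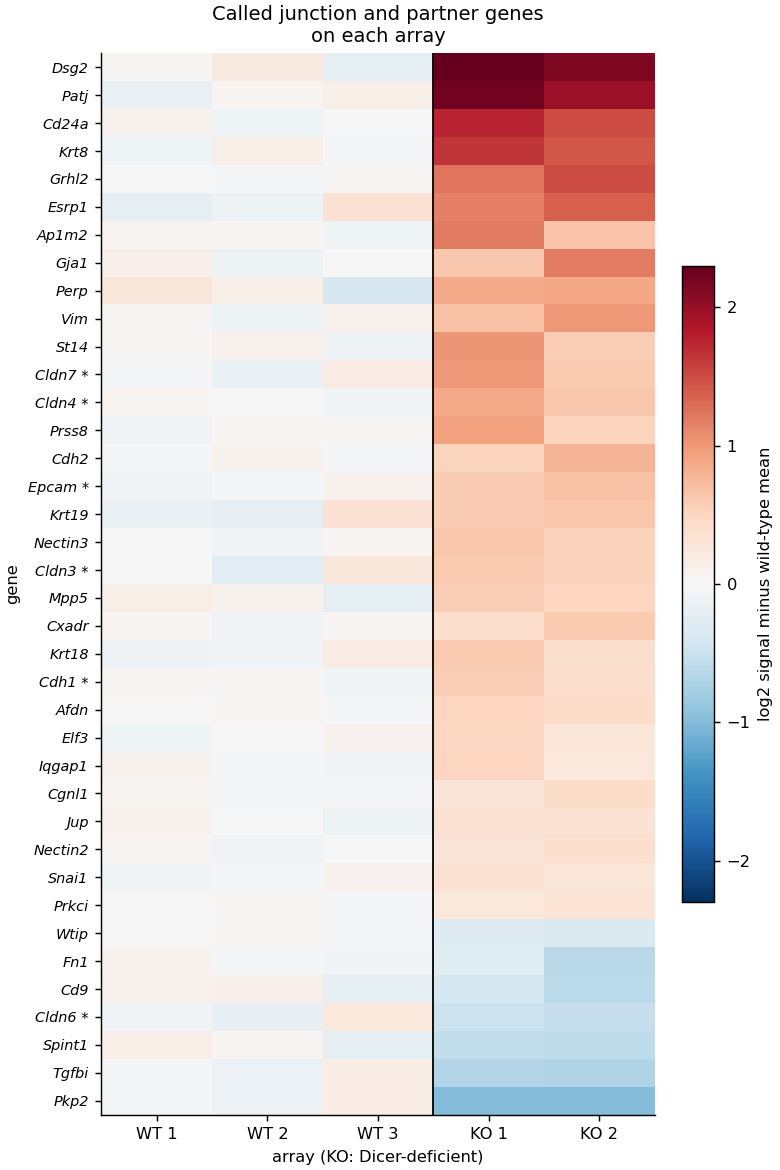
Log2 signal minus the WT mean (colour) on each array (columns) for the 38 called genes of the junction set, marked with an asterisk, and of the partner lists (rows), ordered by change. The KO columns are red or blue throughout, with the strongest red for Dsg2 and Patj and the strongest blue for Pkp2.

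The miR-200 family is a well known link between microRNAs and these genes, since it represses Zeb1 and Zeb2. Its members are shown here because their maturation needs Dicer, with the seed (bases 2 to 8) in capitals, from RefSeq on GRCm38.p6.
mmu-miR-200b-3p: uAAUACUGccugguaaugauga
mmu-miR-200c-3p: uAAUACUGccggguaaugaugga
mmu-miR-429-3p: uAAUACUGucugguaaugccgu
mmu-miR-200a-3p: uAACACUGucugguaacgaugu
mmu-miR-141-3p: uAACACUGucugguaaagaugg
The first 3 share one seed, and miR-200a and miR-141 share another that differs from it at 1 base. Probe sets were measured for 4 of the 5 genes, and they cannot separate precursor from mature forms. By limma 0 of the 4 passed an adjusted p of 0.05, against 17.1% of all genes, and 0 had an unadjusted p below 0.05. Mir200a gave 4.94 to 5.60 on the WT arrays and 5.25 and 5.16 in KO, and Mir200c gave 3.77, 4.00 and 4.42 against 4.39 and 4.21. Both overlapped between groups. Mir141 had a change of 0.10 and Mir200b of -0.20 (adjusted p = 0.534 and 0.284). The mean signals of all 4 were under the median probe set, and whether these genes are expressed in either group cannot be read from these arrays.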

How the data were processed

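The authors deposited 1 table of normalized values, read here as log2 signals because all are positive and span the range of scanner intensities on that scale; the log base, background correction and normalization are not given in the sources used here, and another base would rescale every change but no p-value. Total RNA was turned into biotinylated cRNA for Affymetrix whole-transcript arrays, per the labels' protocols. The 5 array medians were 5.39 to 5.45. Of 35556 probe sets, 21789 had 1 gene symbol in the platform's annotation, 1621 several and 12146 none. The probe set with the highest mean stood for a gene. limma's lmFit and eBayes were fitted to KO minus WT over all 19938 genes, with Benjamini-Hochberg adjustment at 0.05, on 3 residual and 4.55 prior degrees of freedom. SDs and SEs are between arrays, and SEs are moderated.

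The genes and lists were chosen with earlier results of these data known, so they are described by counts and medians without a test of the list. Beside the 8 genes, Dicer1 and a fixed set of catenins, Cdh1 regulators and filament genes, up to 4 called genes with the largest change were named per list, with 3 genes most alike for each of 2 junction genes; others, named to spell out counts, were chosen after their values were seen. On values simulated for the same group sizes over 19938 genes, the fit called 17 of 69 genes changed by 0.5 on the log2 scale. It called 61 of 64 changed by 1, 66 of 67 changed by 2 and 10 of 19738 that were not changed. Far fewer genes were changed there than the 3404 called in the data. The adjustment was therefore stricter in the simulation, and the share found at 0.5 does not carry over to the data. The alternatives were another normalization (2 kinds), leaving out dim genes, 2 kinds of moderation, array weights, probe set means, every probe set, a replicate block, a 2-fold minimum and leaving out each array. R 4.3.3, limma 3.58.1, Python 3.11.15, pandas 2.3.3, numpy 2.4.6 and matplotlib 3.10.9 were used.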

Additional observations from a re-analysis of the deposited data

How the results depend on the processing

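The direction of all 8 junction genes was the same under every alternative run. Their calls were the same when the arrays were quantile normalized again or median centred, with dim genes left out (Ocln then has no value), with an intensity trend, robust moderation or array weights, and with probe set means; with every probe set tested, 6 were called. As each array was left out, 1 to 6 of them were called, against 973 to 2956 of all genes and 11 to 29 of the 124 genes of the 8 partner lists. By list these ranges were 0 to 1 for other claudins, 1 to 4 for tight junction partners, 0 to 3 for the adherens junction, 2 to 4 for desmosomes, 0 to 1 for gap junctions, 3 to 13 for the epithelial programme, 0 to 4 for the transition genes and 0 to 0 for the miR-200 family. Without either KO array, the lone KO array is assumed to vary like the WT arrays. A 2-fold minimum left 458 of all genes, 0 of the 8 junction genes, 7 of the partner genes (1 tight junction partner, 0 of the adherens junction, 2 of desmosomes, 0 gap junction genes, 4 of the epithelial programme, 0 of the transition genes). Among other claudins 1, Cldn12, was called lower when the arrays were quantile normalized again, with dim genes left out and with array weights.

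The shared array numbers were used as a replicate block, which leaves 1 residual degree of freedom. With the block, 894 of all genes, 1 of the 8 junction genes (Epcam) and 11 of the partner genes were called: 1 tight junction partner, 1 of the adherens junction, 3 of desmosomes, 0 gap junction genes, 6 of the epithelial programme and 0 of the transition genes. Nothing in the labels says that a number marks a shared culture. Across genes, deviations of same-numbered arrays from their group means had r = 0.0492 and 0.00525 for numbers 1 and 2. The deviations of the 2 KO arrays are exact opposites by construction. The 2 values are therefore not independent checks and cannot settle whether the arrays were paired. Changes near 0 turned sign: Ctnnb1 was -0.01 with the replicate block and ran from -0.01 to 0.12 over the left-out arrays, Ctnnd1 was 0.01 when quantile normalized again and ran from -0.09 to 0.04, and Zeb2 ran from -0.03 to 0.07. The cause of these differences was not tested. Signal over background was not analysed here, which limits genes under the median probe set.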
